A study of Homo sapiens with 29 samples.

Results

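Of 166696 open-chromatin regions found by ATAC-seq in 29 libraries of the human prostate cancer line 22Rv1, 4711 had a peak when WT-FOXA1 was induced and none after the covalent ligand WX-02-23. They were chosen by their peaks in 6 libraries of the WT-FOXA1 line: present in both DMSO libraries with doxycycline (Dox), absent from both DMSO libraries without Dox, and absent from both WX-02-23 libraries with Dox. In ATAC-seq a transposase cuts open DNA and the cut fragments are sequenced, so a peak marks accessible chromatin. Absence of a peak does not show that a region was closed, since weak openness can escape detection. The regions are called the lost regions here.

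FOXA1 is a pioneer transcription factor. It binds its sites within closed nucleosomal DNA through a forkhead domain, opens them, and lets the androgen receptor and other factors bind in prostate cells. WX-02-23 is a stereoprobe that reacts with the cysteine C258 of FOXA1, next to the DNA-binding surface, so the C258A mutant lacks the residue it reacts with. Stereoprobes of this class and the natural product pladienolide B (PladB) also bind the SF3B1-PHF5A part of the spliceosome, where the Y36C change in PHF5A weakens their action.

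All 14 engineered libraries came from cells that stably overexpressed Y36C-PHF5A. The WT-FOXA1 line gave 2 libraries each of Dox with DMSO, Dox with WX-02-23 at 20 µM, Dox with PladB at 100 nM, and DMSO without Dox. The C258A-FOXA1 line gave 2 libraries each of Dox with DMSO, WX-02-23 and PladB at the same doses. Parental cells gave 3 libraries each of DMSO at 0.1%, WX-02-23 at 20 µM, its stereoisomer WX-02-43 at 20 µM, PladB at 10 nM and PladB at 100 nM. Treatments lasted 3 h. No label describes removal of the cells' own FOXA1, so untreated and C258A cells are taken to hold endogenous WT-FOXA1, and neither the length of Dox treatment nor the number of clones per line is given. Parental and engineered libraries cannot be told apart from their separate preparation. No label says that replicates came from separate cultures. The 22Rv1 label was not checked against marker genes here.

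The lists held 62832 to 98193 peaks. Lists differ in how many weak peaks they reach, and this touches every count below. The 2 WT-FOXA1 DMSO lists with Dox had 88140 and 85009 peaks, the WX-02-23 lists 67815 and 62832, and the lists without Dox 69814 and 67195. A background level read from the steps in the authors' fold values served as relative depth. The steps matched only 14.3% to 25.2% of the peaks of a library. The level ran from 0.547 to 1.50 reads per base over all libraries. It was 0.869 and 0.844 in the DMSO libraries with Dox, 0.903 and 1.26 in the WX-02-23 libraries, and 0.809 and 0.723 without Dox. The WX-02-23 lists and those without Dox were the 4 shortest of the 29, and the WX-02-23 libraries had no lower background than the DMSO libraries with Dox. The part of list length in the choice of the lost regions was measured by shortening every list to its 62832 strongest peaks by the authors' p-value. Under that setting 1244 regions met the rule, of which 984 were among the 4711. These 984 were 20.9% of the lost regions and 79.1% of the 1244. The other 3727 lost regions dropped out because a shortened WT-FOXA1 DMSO list no longer held them. The main shares are therefore followed below by those for the 1244 regions.

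Both WT-FOXA1 DMSO libraries with Dox held 68830 regions, of which 12964 were absent from both libraries without Dox. The lost regions made up 36.3% of these 12964. A further 2771 had a peak in 1 of the 2 WX-02-23 libraries, and 5482 had one in both and are called the kept regions. Of all 68830 regions, 16.5% had a peak in neither WX-02-23 library. These counts follow from the rule and describe the choice.

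The lost regions were weak and narrow peaks. Peak strength was taken as the percentile of the authors' p-value within a list, averaged over the 2 WT-FOXA1 DMSO lists that chose the regions, with 100 the strongest. The median was 22.3 (quartiles 13.9 and 32.4) in the lost regions, 28.9 in those with a peak in 1 WX-02-23 library, 47.2 in the kept regions and 57.5 in all 68830. The authors' median fold over local background was 5.92 in the lost, 7.80 in the kept and 8.15 in all 68830 regions. Only 219 of the 4711 lay above the 50th percentile, against 2465 of the 5482 kept regions. In 3115 lost regions (66.1%) the −log10 q reached 5 in both lists. The median width was 360 bp in the lost, 472 bp in the kept and 580 bp in all 68830 regions. Just outside the rule, 2453 regions had a peak in 1 of the 2 libraries without Dox and met the other conditions. Their median percentile was 23.8. A further 11548 had a peak in 1 of the 2 DMSO libraries with Dox and met the other conditions. Their median was 12.2, read from the 1 list that held them and not averaged. These values took part in the choice and are given without a test.

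**Figure D1:**
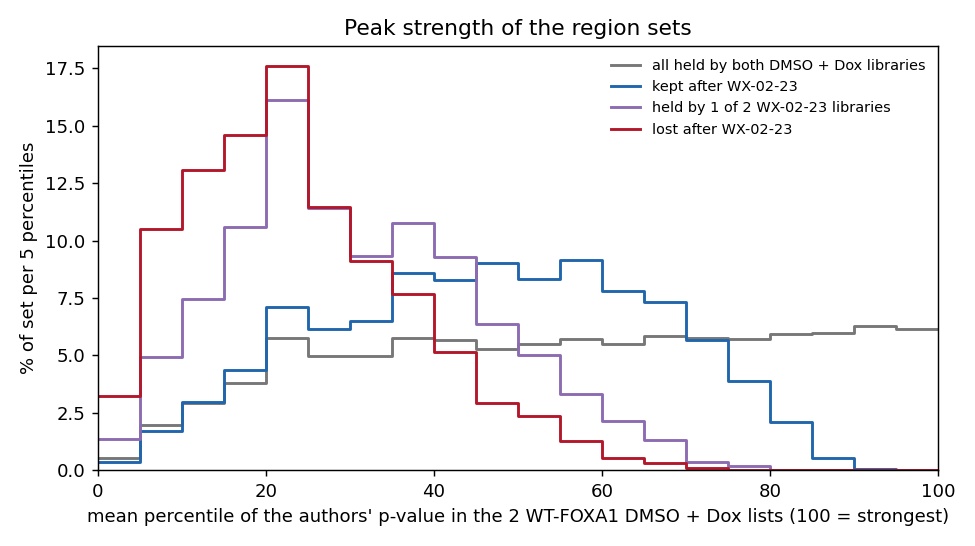
Peak strength of region sets chosen in the WT-FOXA1 line, as the averaged percentile of the authors' p-value in the 2 DMSO lists with Dox (x axis) against the percentage of each set in each bin of 5 percentiles (y axis). The lost regions centre at a median of 22.3, the kept regions at 47.2, and all regions held by both lists at 57.5.

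With C258A-FOXA1 induced in place of WT-FOXA1, about as many lost regions had a peak as lacked one under DMSO, and the share after WX-02-23 overlapped that under DMSO. None of these libraries took part in the choice. Under DMSO 53.4% and 56.9% of the lost regions had a peak (mean 55.2% ± 2.48, SD, n = 2). Over all 68830 regions the shares in these DMSO libraries were 89.1% and 90.5%. After WX-02-23 the shares of the lost regions were 42.0% and 59.4% (50.7% ± 12.3, SD, n = 2). The treated pair lay on both sides of the vehicle pair, and the difference of means, -4.49 percentage points, was smaller than its SD of 12.5. The WX-02-23 library with the lower share also had the shorter list, 76645 peaks against 92658, and the lower background, 0.648 against 0.917. Without that library the difference was 4.19 points, and without the other it was -13.2. Lists of equal length brought the replicates together: 48.6% and 49.0% of the 1244 regions had a peak under DMSO, and 45.6% and 48.2% after WX-02-23. The groups then did not overlap, and the means differed by -1.89 points. Both WT-FOXA1 DMSO lists with Dox then held 51047 regions. Over all of these the groups did not overlap either, at 90.1% to 90.5% against 87.8% to 89.3%. With only the 6 lists of the rule shortened and the C258A lists whole, the same 1244 regions had a peak in 69.6% and 74.3% under DMSO and in 59.4% and 75.2% after WX-02-23. Those groups overlapped, so the non-overlap in the 1244 regions depended on shortening the C258A lists too. With 2 libraries against 2, the smallest p of an exact two-sided permutation test is 1 in 3, and no p-value is given for shares of a set chosen with results known.

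The kept regions had a peak more often in every C258A library. Under DMSO 86.2% and 88.1% of them had one, and after WX-02-23 85.9% and 92.7%. The lost regions were 31.2 and 32.8 points below the kept ones in the 2 DMSO libraries, that is without the ligand. Kept regions had to have a peak in both WT-FOXA1 WX-02-23 lists and lost regions in neither. The choice itself can therefore give such a gap, and its part was not tested. A separate set of 4206 regions had a peak in both WT-FOXA1 DMSO groups, with and without Dox, and in neither WX-02-23 library. In the C258A line these had a peak in 78.6% and 82.4% under DMSO and in 51.2% and 73.7% after WX-02-23. At equal list length the means of that set, then 1814 regions, were 70.01% ± 0.624 and 48.1% ± 3.43 (SD, n = 2). The means thus differed by -21.9 points there and by -1.89 in the lost regions. The difference between the 2 sets was not tested.

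**Figure D2:**
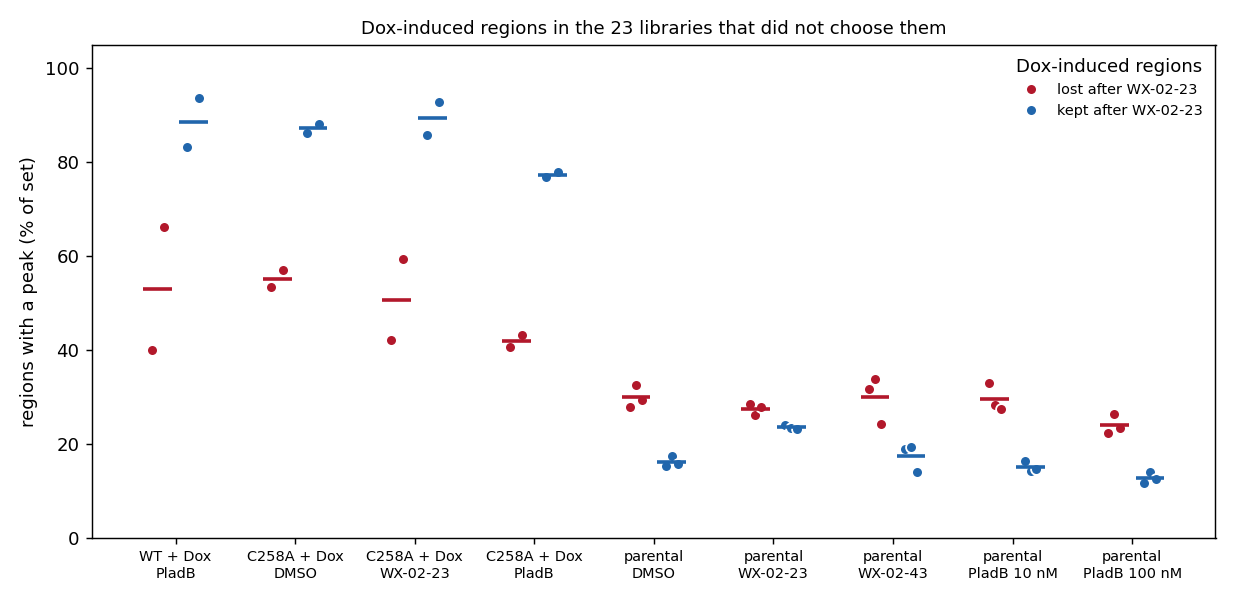
Percentage of the lost (4711) and kept (5482) Dox-induced regions with a peak (y axis) in each library of the 9 groups that took no part in their choice (x axis). Points are libraries and bars are group means; in engineered cells every library held fewer lost than kept regions, and in parental cells every library held more, both as shares of their set in lists of full length.

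Region by region, the most common states in the C258A line were a peak in every DMSO and WX-02-23 library and a peak in none. Both DMSO and both WX-02-23 libraries of this line had a peak in 1342 lost regions (28.5%), and none of the 4 had one in 1047 (22.2%). Peaks in both DMSO libraries and neither WX-02-23 library were found in 171, and the reverse in 99. These were 4.67% and 2.70% of the 3664 lost regions with a peak in any of the 4 libraries. Over all regions the same calls made up 2.55% and 2.37% of 103258. In full lists the share gained was thus near the background, and the share lost was above it. The lost regions also exceeded the background for loss in every other comparison given below. They exceeded it for gain as well wherever gain was counted, after WX-02-23 in parental cells by only 1.89% against 1.82%. For loss after PladB in this line the shares were 9.09% in the lost regions and 4.67% over all regions. Of the 5273 kept regions open to this comparison, 26 were lost and 90 gained. Among the 1244 regions at equal list length, 332 had a peak in all 4 libraries, 373 in none, 52 only in both DMSO libraries and 33 only in both WX-02-23 libraries. Of the 871 with a peak in any of the 4, the last 2 counts are 5.97% and 3.79%. Over all 76282 such regions at that length the calls made up 2.8% and 2.63%, so there the share gained was above the background as well.

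**Figure D3:**
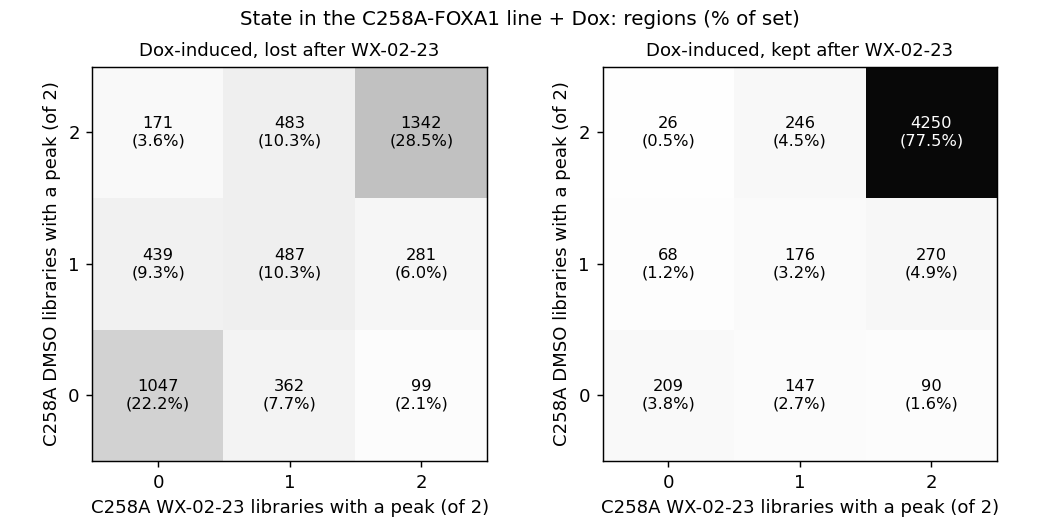
Number and percentage of lost (left) and kept (right) regions by how many of the 2 C258A DMSO libraries (y axis) and the 2 C258A WX-02-23 libraries (x axis) had a peak. The lost regions concentrate in 2 corners, 1342 with a peak in all 4 libraries and 1047 in none, whereas 4250 of the kept regions had a peak in all 4.

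The gap between lost and kept regions in the C258A line was seen at each strength compared. Strength came from lists that the rule used, and the 2 sets differ by their peaks in the WX-02-23 lists. Equal strength therefore does not remove the part of the choice, which was not tested. Between the 20th and 30th percentile of WT-FOXA1 strength, 54.6% ± 1.50 of 1370 lost regions and 75.1% ± 2.63 of 726 kept regions had a peak under C258A DMSO (SD, n = 2). Between the 50th and 60th percentile the shares were 82.1% ± 3.27 of 173 and 94.4% ± 0.516 of 960. The share rose with strength in both sets, from 40.6% ± 3.93 of the lost regions below the 10th percentile to 88.8% ± 1.77 of the 40 between the 60th and 70th. The difference between WX-02-23 and DMSO in the lost regions was -3.48 to -7.51 points in the 7 bins up to the 70th percentile, with overlapping libraries in each bin but the last. Lost regions that had a peak in the C258A DMSO lists were again weak there, at median percentiles of 29.8 and 29.5 against 58.1 and 58.4 for the kept regions. Their summits lay near those in WT-FOXA1 cells: the median distance between the first DMSO libraries of the 2 lines was 45 bp, as it was between the 2 WT-FOXA1 DMSO libraries.

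**Figure D4:**
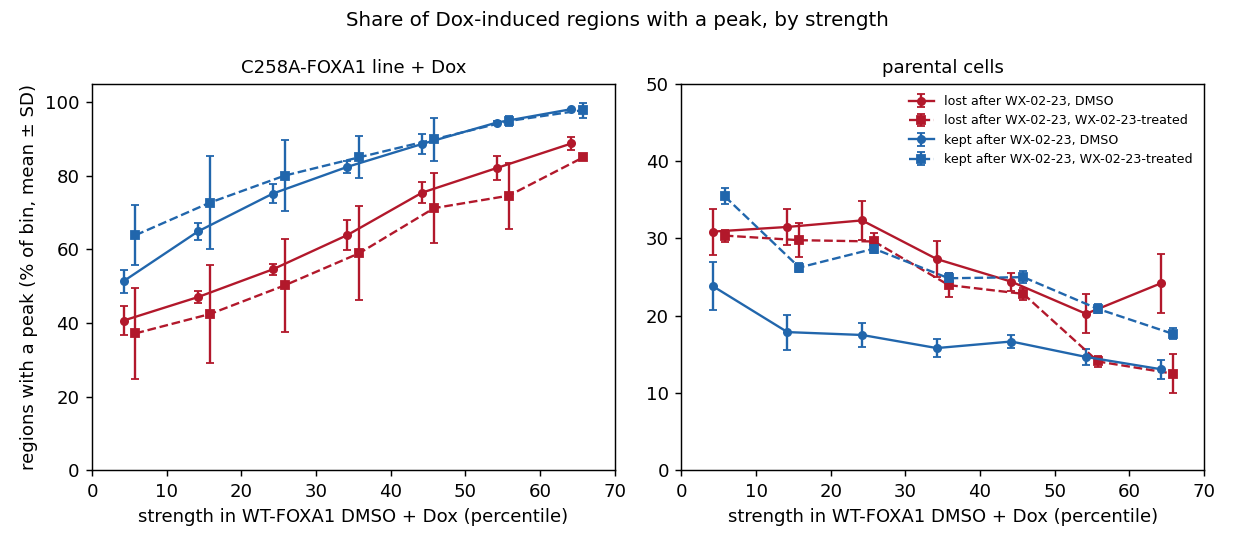
Percentage of lost and kept regions with a peak (y axis, mean and SD over 2 C258A or 3 parental libraries) by strength in the WT-FOXA1 DMSO lists in bins of 10 percentiles (x axis). In C258A cells the lost regions lie below the kept ones in each bin, and in parental cells the kept regions are higher after WX-02-23 than after DMSO.

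The 4 strongest lost regions were all open in both C258A WX-02-23 libraries. They are placed on hg19. The strongest, chr13:84742751-84743213, had an authors' fold of 13.7 and 14.4 in the WT-FOXA1 DMSO libraries and was absent after WX-02-23. In the C258A line its fold was 10.3 and 9.92 under DMSO and 10.3 and 14.1 after WX-02-23. It had peaks in 10 of the 15 parental libraries, 2 with DMSO and 1 with WX-02-23. The next, chr5:116843055-116843465, had 10.8 and 12.9 in WT-FOXA1 DMSO, 8.29 and 10.1 in C258A DMSO and 8.91 and 11.3 in C258A WX-02-23, and no peak in any parental library. The region chr11:89000632-89001424 had 11.4 and 11.7 in WT-FOXA1 DMSO and 10.0 and 12.1 in C258A WX-02-23, and in parental cells it had a peak in 2 DMSO, 2 WX-02-43 and 2 low-dose PladB libraries only. The region chr7:80901430-80901815 was open only in engineered cells, at 10.3 and 10.9 in WT-FOXA1 DMSO and 5.61 and 7.89 in C258A WX-02-23. All 4 were therefore found in every Dox library of both lines except the WT-FOXA1 libraries given WX-02-23.

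The strongest of the 171 lost regions that also lost their peak in the C258A line were chr4:84246413-84246843, chr6:58055662-58056308, chr2:183819374-183819947 and chr10:76277944-76278356. Their mean folds in WT-FOXA1 DMSO were 9.41, 9.42, 8.71 and 8.62. The first had 6.29 and 6.97 in C258A DMSO, and in parental cells it had a peak in 2 DMSO and 3 WX-02-43 libraries and no WX-02-23 library. The second had 12.6 and 8.04 in C258A DMSO and was found in 11 parental libraries, 1 of them with WX-02-23. The last had a peak in no parental library. These 171 had a median strength percentile of 22.1, against 28.8 for the 1342 open in all 4 C258A libraries. At the other end, 244 lost regions (5.18%) had a peak in no library beyond the 2 that chose them, at a median percentile of 13.6. The strongest of these were chr7:135518460-135518698, chr3:97507304-97507555, chr6:7011452-7011822 and chr20:39181613-39181891, with mean folds of 7.01, 7.27, 6.66 and 7.28.

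PladB, a splicing inhibitor with no covalent bond to FOXA1, left a part of the lost regions with a peak in the WT-FOXA1 line, where by the rule WX-02-23 left none. With Dox and PladB the shares were 40.0% and 66.2%. Both PladB libraries had one in 1582, 1 of the 2 in 1836 and neither in 1293. These 1293 are 27.4% of the lost regions. Over all 68830 regions 4.45% had a peak in neither PladB library. The DMSO libraries of this comparison took part in the choice, so the 2 shares are given side by side only. The replicates differed as their lists did, 71121 and 88735 peaks, and at equal length 53.8% and 56.3% of the 1244 regions had a peak. With only the 6 lists of the rule shortened the shares were 66.0% and 87.3%. In the C258A line PladB left a peak in 40.5% and 43.2% of the lost regions, 13.3 points below DMSO with no overlap between groups. Over all regions the difference was -5.85 points. The PladB libraries of this line had the lowest backgrounds of the 29, 0.547 and 0.587, and their part in the result was not tested. At equal list length the shares were 45.3% and 47.1%, against 48.6% and 49.0% under DMSO, a difference of -2.53 points. Regions with a peak in both C258A DMSO libraries and neither PladB library numbered 317 of 3487 (9.09%) among the lost regions, with a background of 4.67%. The reverse was found in 51 (1.46%), with a background of 0.806%.

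In parental cells, which carry no transgene, most lost regions had no peak with vehicle, and their share after WX-02-23 overlapped it. No peak was found in any of the 15 parental libraries for 2467 lost regions (52.4%), 380 (8.07%) had one in all 15, and 1864 in some. The shares under DMSO were 27.8%, 32.5% and 29.4% (29.9% ± 2.36, SD, n = 3). After WX-02-23 they were 28.4%, 26.2% and 27.9% (27.5% ± 1.16, SD, n = 3), overlapping the DMSO libraries. The difference of -2.37 points was smaller than its SD of 2.63. At equal list length the WX-02-23 libraries lay together below the DMSO libraries, at 12.5% to 13.2% against 15.2% to 17.6%, a difference of -3.51 points. Over all 51047 regions held by both WT-FOXA1 DMSO lists at that length, the shares were 82.5% to 82.9% against 82.9% to 83.5%, with overlap. With only the 6 lists of the rule shortened the lost regions stood at 25.5% to 27.5% against 29.1% to 33.4%, again without overlap. By strength, the difference was negative in all 7 bins, and the libraries did not overlap in the 2 strongest. Between the 50th and 60th percentile the shares were 20.2% ± 2.52 after DMSO and 14.1% ± 0.667 after WX-02-23 (SD, n = 3), and for the 40 regions between the 60th and 70th 24.2% ± 3.82 and 12.5% ± 2.50. With 3 libraries against 3 the smallest exact two-sided permutation p would be 0.1.

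The kept regions went the other way. They had a peak in 15.2%, 17.5% and 15.8% after DMSO and in 24.1%, 23.4% and 23.1% after WX-02-23, 7.38 points higher with no overlap. Over all regions the difference was 1.09 points, with overlap. At equal list length the kept regions stood at 9.51% to 9.93% and 15.9% to 16.6%. Kept regions had to have a peak in both WT-FOXA1 WX-02-23 lists and lost regions in neither. The choice itself can therefore give opposite directions under this ligand, and its part was not tested. The excess of lost over kept regions was 12.6 to 15.02 points in the parental DMSO libraries and 2.79 to 4.78 in the WX-02-23 libraries. With lists of equal length this turned in all 3 WX-02-23 libraries, where the lost regions had the lower share (mean 12.8% against 16.2%). With a fold of at least 6 it turned in 1 of them, at 22.1% against 23.0%. Regions with a peak in all 3 DMSO and no WX-02-23 library were 81 of 2062 lost regions (3.93%), with a background of 1.18%. Those with the reverse were 39 (1.89%), with a background of 1.82%. Of 1587 kept regions, 13 were lost in this way and 198 (12.5%) were gained. Lost regions were thus called lost more often than regions at large and gained about as often. Most kept regions were called neither, and those called were more often gained than lost.

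**Figure D5:**
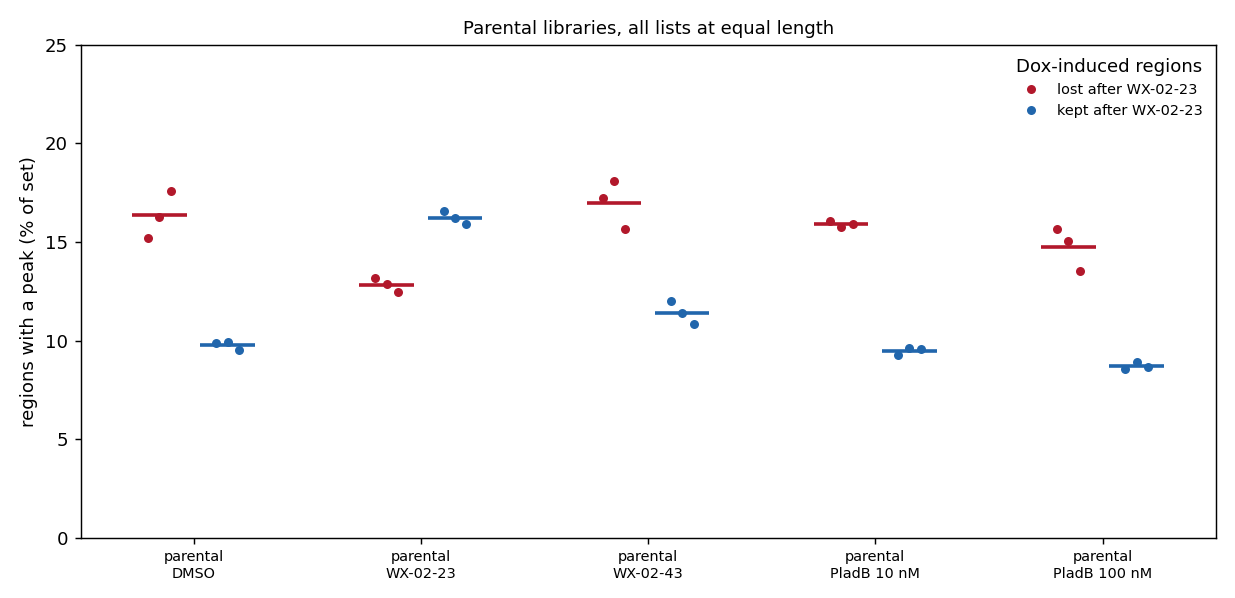
Percentage of the lost (1244) and kept (3785) regions with a peak (y axis) in each parental library by treatment (x axis), with all lists shortened to 62832 peaks; points are libraries and bars are means. After WX-02-23 the lost regions lie at 12.5% to 13.2%, below every DMSO library, and the kept regions at 15.9% to 16.6%, above every DMSO library.

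The stereoisomer WX-02-43, at the same dose and time, gave shares that overlapped those of vehicle. They were 31.7%, 33.8% and 24.2% (29.9% ± 5.08, SD, n = 3), and the difference from DMSO was 0 points with an SD of 5.60. The lowest of these libraries also had the shortest list of the 3 WX-02-43 libraries, 83748 peaks. WX-02-23 was 2.37 points below WX-02-43, with an SD of 5.21 and overlapping libraries. At equal list length WX-02-43 stood at 15.7% to 18.1%, above all 3 WX-02-23 libraries. Among 2071 lost regions 9 (0.435%) were called lost and 15 (0.724%) gained after WX-02-43. The backgrounds were 0.369% and 0.34%. PladB at 10 nM gave 32.9%, 28.3% and 27.3%, 0.403 points below DMSO. It had 19 of 2035 lost regions (0.934%) called lost and 17 (0.835%) gained, with backgrounds of 0.556% and 0.408%. PladB at 100 nM gave 22.3%, 26.4% and 23.4%, 5.83 points below DMSO with no overlap. Over all regions the share also differed by -5.96 points with no overlap, which is as large. Of 1968 lost regions 64 (3.25%) were called lost and 11 (0.559%) gained, with backgrounds of 1.68% and 0.187%. The share called lost was 3.36% in the kept regions. The 3 libraries at 100 nM also had shorter lists than the DMSO libraries, 82538 to 87426 peaks against 91632 to 98193. At equal list length they gave 13.5% to 15.7%, overlapping the DMSO libraries. All 4 parental comparisons share the DMSO libraries.

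The 81 lost regions that lost their peak in parental cells after WX-02-23 were led by chr18:72722600-72723051, chr12:110668477-110668827, chr10:61464397-61464743 and chr7:80599661-80600115. The authors' fold of the first in parental cells was 5.85, 4.99 and 7.81 after DMSO and 7.12, 6.14 and 6.79 after WX-02-43, and it had no peak after WX-02-23. In the C258A line it kept a peak after WX-02-23, at folds of 5.57 and 7.37, and its folds under DMSO were 10.4 and 9.48. The second had 9.96 and 7.01 in C258A DMSO and 9.54 and 9.15 in C258A WX-02-23. The third had a peak in all 12 parental libraries other than WX-02-23, at folds of 3.83 to 5.87, and in 1 of the 2 C258A WX-02-23 libraries. All 4 had no peak after WX-02-23 in parental and WT-FOXA1 cells and a peak in at least 1 C258A WX-02-23 library. The 380 open in every parental library were led by chr4:24746005-24746464, chr8:96625043-96625709, chr3:74222274-74222619 and chr9:22539884-22540441. All 4 also had a peak in both C258A WX-02-23 libraries, and all but the third in both C258A DMSO libraries. The folds given here are the authors' and describe each list only.

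The lost regions with no parental peak had the highest share in the C258A line. They were also the strongest, with a median percentile of 24.0 against 20.5 for those with a peak in 1 to 14 parental libraries and 21.8 for those with one in all 15, and the part of strength was not tested. The share was 59.6% ± 1.72 under C258A DMSO and 58.7% ± 9.95 after C258A WX-02-23 (SD, n = 2). Those with a peak in 1 to 14 parental libraries had 49.5% ± 3.00 and 41.2% ± 14.9, and those with a peak in all 15 had 53.9% ± 4.84 and 45.1% ± 14.7. Within each class the DMSO and WX-02-23 libraries overlapped, and the difference between classes was not tested.

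The lost regions were scattered over the genome. The median distance from a lost region to the next was 178430 bp, and 6.16% had another within 10000 bp, against 9.16% for the kept regions. They held 2234 windows of 1 Mb, at most 9 to a window, reached at chr12:86000001-87000000, chr7:13000001-14000000 and chr7:117000001-118000000. The median distance to a region open in all 29 libraries was 34728 bp, against 40156 bp for the kept and 20464 bp for all 68830 regions. Within 10000 bp of such a region lay 19.7% of the lost, 16.1% of the kept and 31.4% of all 68830 regions. Lost regions made up 10.4% of the regions held by both WT-FOXA1 DMSO libraries on chromosome 13, which is poor in genes, and 2.58% on chromosome 19, which is rich in them. Of the Dox-induced regions alone, they made up 36.3% on chromosome 13 and 47.2% (76 of 161) on chromosome 19. Chromosome 19 thus had few induced regions, and a larger part of these was lost than on chromosome 13. Sequences, motifs and neighbouring genes were not analysed here.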

How the data were processed

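ATAC-seq peak lists of 29 libraries, 1 per library with none pooled, were used. Per the submitters' processing notes, Bowtie2 and MACS2 were used with hg19; which versions and options is not stated in any source used here. For each peak the authors deposited a score, a fold enrichment (a ratio over local background), the −log10 of the p-value and of the q-value, and the summit offset. The smallest −log10 q of each deposited list was close to 2. Read depth is unknown, so no counting interval is given. The lowest fold values rise in steps of 1 read, and the background in reads per base behind those steps was used as a relative depth.

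Peaks of all lists except those on the mitochondrial chromosome were merged where they overlapped or touched, and a library held a region where it had a peak there (overlap of 1 bp or more). Presence was the only measure compared between libraries; fold, p and q described or ranked peaks within a list. A region was called lost where all control and no treated libraries held it, and gained where the reverse held, out of regions held by any library of either group. For the PladB comparison of the WT-FOXA1 line the base was the regions held by both DMSO libraries. No test was run on shares of the regions, since the regions, the sets and the alternatives were chosen with earlier results of these data known. The SD of a difference is the root of the summed squares of the group SDs. It gives the spread of a difference between single libraries and not that of a difference of means. Regions were named by a rule, 4 per class: the highest mean percentile of the authors' p-value in the WT-FOXA1 DMSO lists among all regions, those with a peak in all 4 C258A DMSO and WX-02-23 libraries, those with a peak in the DMSO but not the WX-02-23 libraries of that line, those found only in the 2 WT-FOXA1 DMSO libraries, those lost in parental cells, and those in all 15 parental libraries. Alternatives were a −log10 q of at least 5, a fold of at least 6, lists of equal length (62832 peaks), peaks covering 50% of a region, summit windows reaching 100 bp either way, regions from the 14 engineered lists, nuclear chromosomes 1 to 22, X and Y only, bins of strength, and leaving out each library. Sequences and genes were not analysed here, because the tables used carry another build than hg19. Merging and overlap were tested on simulated data and checked against bedtools 2.31.1. Python 3.11.15, numpy 2.4.6, pandas 2.3.3 and matplotlib 3.10.9 were used.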

Additional observations from a re-analysis of the deposited data

How the results depend on the processing

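No paired analysis was possible because the results are shares and counts that come from no test, although the groups share replicate numbers. Over 187 alternative values of 11 results, 160 stayed within the replicate spread (for counts, within 1.5 times). A further 23 moved by more and 4 changed sign, and the cause was not tested. That spread was wide for some results, with an SD of 12.5 points for the C258A WX-02-23 difference and 18.5 for the WT-FOXA1 PladB share. The WX-02-43 difference was 0, so it could not be counted as changing sign. The number of lost regions was 3111 with a fold of at least 6 (1058 shared), 1244 with all lists or only the 6 lists of the rule at equal length, and 5727 to 11176 with a library left out, 9794 without the first and 11176 without the second WT-FOXA1 DMSO library with Dox. Their share with a peak under C258A DMSO was 60.8% with a fold of at least 6, 48.8% with all lists at equal length, 71.9% with only the 6 lists of the rule at equal length, 52.0% with 50% of a region covered, and 37.9% to 60.4% with a library left out. For PladB in the WT-FOXA1 line it was 76.6% with only those 6 lists at equal length and 34.2% to 66.2% with a library left out. Applying those 6 shortened lists to the shares was chosen after seeing the data. The C258A difference between WX-02-23 and DMSO ranged from -13.2 to 4.19 points with a library left out, positive only without the first WX-02-23 library. The parental difference for PladB at 10 nM ranged from -2.11 to 0.888 points, with 0.888, 0.216 and 0.683 without the second DMSO, the second PladB and the third PladB library. Depth is unknown, and a weak peak absent from a short list is not shown to be closed.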
